A study of Mus musculus with 2 samples.

Results

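Noncycling CD8 T cells that carry RNA of Havcr2, the gene of the inhibitory receptor Tim-3, are described here in tumours of control mice and of mice given an OX40 agonist. A cell was a member when its barcode had at least 500 UMIs (unique molecular identifiers, 1 per captured RNA molecule), 200 or more genes, no more than 10% mitochondrial UMIs, and passed the following gates. It held at least 2 UMIs of Cd3e, Cd3d and Cd3g together and at least 2 of Cd8a and Cd8b1, which defined a T cell of the CD8 kind. It held fewer than 5 UMIs of C1qa, C1qb, C1qc and Lyz2 and fewer than 10 of Pmel, Mlana and Dct, which left out macrophages and melanoma cells. It held fewer than 10 UMIs of granzymes D to G and fewer than 10 of the cycle genes Mki67, Top2a, Birc5, Cdk1, Ccnb2, Ube2c and Cenpf. Finally it held at least 1 UMI of Havcr2. These measured counts chose the members, so their levels of the gate genes are a description. There were 1013 members among 13854 filtered barcodes, 555 of 6354 in the control library and 458 of 7500 in the OX40 agonist library.

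The cells came from subcutaneous tumours of B16-F10, a mouse melanoma line, in female wild-type C57BL/6 mice 10 weeks old at implantation. CD45-positive, DAPI-negative leukocytes were sorted, and 1 droplet library was made per group with 10x Genomics 3′ chemistry. What the control mice received, the antibody's dose and timing, and the number of mice in each library are not given in the sources used here. With 1 library per group there is no replicate, no test and no p-value. Intervals in parentheses are 95% intervals for counting error only, and those of gene levels are too narrow where few cells hold most of the UMIs.

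Tim-3 is a surface receptor of T cells and myeloid cells that dampens activation. CD8 T cells that meet their antigen again and again in a tumour enter exhaustion, in which they carry several inhibitory receptors at once. The Tim-3-positive state is known as a late and effector-like form, and it arises from stem-like cells that depend on the transcription factor TCF-1, the product of Tcf7. OX40, encoded by Tnfrsf4, is a costimulatory receptor that activated T cells display.

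The promoters of Havcr2 and of 3 effector genes whose RNA was higher in the members than in Tim-3-negative cells are printed first, since these genes carry much of the comparison that follows. They are Gzmc and Gzmb, which encode the killing proteases granzymes C and B, and Prf1, which encodes the pore protein perforin. Each window runs from 250 bases before to 50 after the gene's start in RefSeq, build GRCm38.p6, and is written 5′ to 3′ on the gene's strand. The windows are chr11:46454681-46454980 on the plus strand for Havcr2, chr14:56234608-56234907 on the minus strand for Gzmc, chr10:61297586-61297885 on the plus strand for Prf1 and chr14:56262285-56262584 on the minus strand for Gzmb. Capitals mark matches on either strand to short motifs of activation and effector factors, namely TGANTCA for AP-1, TGTGGT for RUNX, TTTCCA for NFAT and TCACAC for T-box factors, and no marked matches overlap in these 4 windows.
Havcr2: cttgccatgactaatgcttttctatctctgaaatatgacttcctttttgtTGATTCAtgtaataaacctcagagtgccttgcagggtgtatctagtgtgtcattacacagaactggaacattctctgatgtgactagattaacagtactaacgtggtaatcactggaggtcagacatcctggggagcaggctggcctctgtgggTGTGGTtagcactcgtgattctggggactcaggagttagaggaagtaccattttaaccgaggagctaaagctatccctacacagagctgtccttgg
Gzmc: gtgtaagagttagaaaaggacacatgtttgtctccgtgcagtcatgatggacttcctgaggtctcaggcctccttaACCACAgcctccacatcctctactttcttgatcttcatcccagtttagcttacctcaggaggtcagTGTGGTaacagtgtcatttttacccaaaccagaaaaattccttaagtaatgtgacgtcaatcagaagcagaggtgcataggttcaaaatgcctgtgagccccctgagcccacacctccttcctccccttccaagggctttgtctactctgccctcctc
Prf1: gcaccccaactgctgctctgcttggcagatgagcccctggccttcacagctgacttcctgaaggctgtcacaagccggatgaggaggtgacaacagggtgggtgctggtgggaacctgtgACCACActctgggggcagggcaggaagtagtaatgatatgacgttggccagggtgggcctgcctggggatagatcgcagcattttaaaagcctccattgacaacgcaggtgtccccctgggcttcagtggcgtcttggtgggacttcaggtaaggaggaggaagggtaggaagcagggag
Gzmb: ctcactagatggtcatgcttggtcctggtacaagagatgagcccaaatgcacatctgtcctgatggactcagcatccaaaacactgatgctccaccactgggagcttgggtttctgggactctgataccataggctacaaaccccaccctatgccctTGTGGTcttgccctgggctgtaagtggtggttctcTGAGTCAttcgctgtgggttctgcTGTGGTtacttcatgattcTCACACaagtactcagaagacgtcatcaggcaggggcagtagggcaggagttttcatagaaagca
Havcr2 held an AP-1 match starting at position -200 from the gene's start and a RUNX match at -46. Gzmc held RUNX matches at -174 and -108, and Prf1 held 1 at -130. Gzmb held RUNX matches at -93 and -34, an AP-1 match at -58 and a T-box match at -15. Of all 32851 promoters in the RefSeq table, 7.81% held the AP-1 letters, 16.8% RUNX, 21.4% NFAT and 14.5% T-box. A RUNX match stood in 4 of the 10 promoters found for the genes named below as higher in the members and in 4 of 11 of those named as lower, an AP-1 match in 3 of 10 and 0 of 11, a T-box match in 4 of 10 and 3 of 11, and an NFAT match in 1 of 10 and 3 of 11. These matches describe letters in a window and say nothing of binding.

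The members carried the transcripts that the gate and the label name, and those of CD4 T cells were near 0. In members, Cd8a stood at 964 CPM, that is UMIs of the gene per 1000000 UMIs of the summed cells (941 to 988), in the control library and 909 CPM (882 to 936) in the agonist one. Havcr2 stood at 241 CPM (230 to 253) and 245 CPM (231 to 259), against 61.5 and 45.4 CPM over all filtered cells. Cd4 stood at 1.63 and 3.797 CPM and Foxp3, the regulatory T cell factor, at 5.77 and 6.12 CPM. The levels of Cd8a and Havcr2 lay close together in the libraries, and the gate sets a minimum for Havcr2 and for the sum of Cd8a and Cd8b1. The Havcr2 gene lies on chromosome 11 at 46454935 to 46481255 on the plus strand in GENCODE M21 on GRCm38, and the 3′ reads were counted per gene without resolving its exons.

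RNA of other cell types was present at low levels in the members. The 13 macrophage markers summed to 1055 CPM in control members and 1075 in treated members, against 659 and 875 in Tim-3-negative CD8 T cells and 8602 and 8811 CPM over all cells, and all 13 had a UMI in each library. Cst3, which is expressed widely, held 918 and 946 CPM of those sums, and 1 control member held 25.0% of its control UMIs. The 8 melanoma markers summed to 97.4 and 97.7 CPM, against 5411 and 6521 over all cells. The gate itself capped C1qa, C1qb, C1qc and Lyz2 of the macrophage list and Pmel, Mlana and Dct of the melanoma list. The macrophage and melanoma sums were therefore kept low in part by the gate. The 11 dendritic cell markers summed to 860 and 855 CPM, of which Cd74 held 504 and 495, and 1 control member held 31.9% of the control Cd74 UMIs. The 9 natural killer markers summed to 284 and 250 CPM, against 2473 and 2321. Of the 11 marker lists, the 6 neutrophil markers had the widest ratio between the libraries, at 22.5 and 57.8 CPM, with Cxcr2, Retnlg and Ly6g at 0 in control members. The B cell genes Cd79a and Ms4a1 were at 0 in members of both libraries, as were the stromal genes Col1a1, Pdgfrb and Dcn. The CD4 and regulatory T cell list summed to 1011 and 1102 CPM, against 841 and 792 in Tim-3-negative cells and 363 and 321 over all cells. In members of each library 5 of its 8 genes reached 10 CPM. The list includes Ctla4 and Tnfrsf4, which activated CD8 T cells also express, and Il2ra, at 56.8 and 43.5 CPM in members. Members scored as doublets numbered 10 of 555 (1.80%) and 15 of 458 (3.28%). The number of barcodes so scored was set in advance, at 323 of 6354 in the control and 450 of 7500 in the agonist library. The member counts are thus no measured doublet rate.

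Most members lay well inside the gate except at its Havcr2 edge. Members had a median of 2 Havcr2 UMIs in each library and a maximum of 17 and 12, and 171 control and 184 treated members had exactly 1. At the cycle gate, 19 and 15 members held 8 or 9 cycle UMIs, and 16 and 14 otherwise eligible cells were left out with 10 or 11. At the macrophage gate, 46 and 26 members held 3 or 4 UMIs, and 4 and 6 cells were left out with 5 or 6. At the granzyme gate, 8 and 1 members held 8 or 9 UMIs, and 5 and 5 cells were left out with 10 or 11. No barcode was shared between members of the libraries, and 18 were shared between the libraries as a whole.

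Because 1 Havcr2 UMI decides membership, the number of cells called Tim-3-positive moved with depth. Members had a median of 10926 UMIs in the control and 9328 in the agonist library, and Tim-3-negative noncycling CD8 T cells 5877 and 5334.5. In the control library the Tim-3-positive share of noncycling CD8 T cells was 5 of 30 cells below 3000 UMIs (16.7%, 5.64 to 34.7), 68 of 242 from 3000 to 6000 UMIs (28.1%, 22.5 to 34.2), 241 of 390 from 6000 to 12000 (61.8%, 56.8 to 66.6) and 241 of 274 above (88.0%, 83.5 to 91.6). In the agonist library it was 8 of 30 (26.7%, 12.3 to 45.9), 106 of 309 (34.3%, 29.0 to 39.9), 202 of 326 (62.0%, 56.5 to 67.3) and 142 of 177 (80.2%, 73.6 to 85.8). The share was higher in each deeper bin in both libraries, and the intervals of the libraries overlapped in every bin. The Tim-3-negative group was thus the shallower of the pair in each library.

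**Figure D1:**
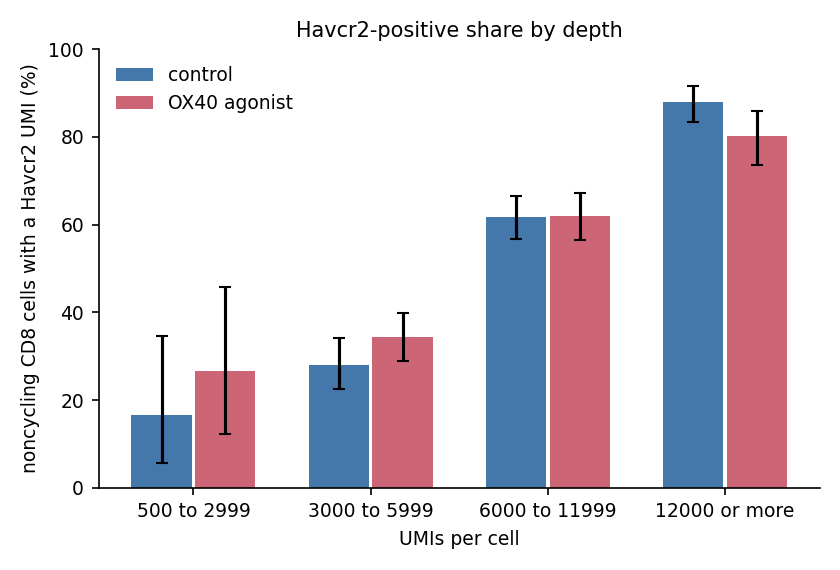
Share of noncycling CD8 T cells with a Havcr2 UMI (%, y axis) by UMIs per cell (x axis) in the control and OX40 agonist libraries; bars are shares and error bars exact 95% intervals. From 6000 to 12000 UMIs the shares were 61.8% and 62.0%.

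Members made up 34.9% of CD8-gated cells in the control library (32.5 to 37.3; 555 of 1592) and 35.9% in the agonist library (33.2 to 38.6; 458 of 1277). Within noncycling CD8 T cells the shares were 59.3% (56.1 to 62.5) and 54.4% (51.0 to 57.8). When every cell was reduced to 2000 UMIs, the expected share with a Havcr2 UMI was 24.5% (21.8 to 27.4) of 930 control cells and 23.4% (20.6 to 26.4) of 837 treated cells, so the gap between the libraries fell within counting error at equal depth. At 1000 UMIs the shares were 13.7% and 13.1%. Melanoma cells, which should lack the gene, gave 0.600% and 0.571% at 2000 UMIs, with unthinned medians of 72857 and 65896 UMIs and unthinned shares of 17.7% in each library. Cycling CD8 T cells gave 20.6% (17.0 to 24.7) and 22.3% (17.9 to 26.9) at 2000 UMIs, and 79.1% and 78.4% unthinned. CD8 T cells with at least 10 UMIs of granzymes D to G gave 39.1% (32.5 to 46.4) and 35.0% (25.1 to 45.4), and 95.02% and 93.5% unthinned.

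The members were compared with the 381 control and 384 treated Tim-3-negative noncycling CD8 T cells of the same library. The Havcr2 count that chose the members also made this comparison, so its values are a description with no test. A gene was counted when it had at least 10 CPM in the higher of the groups compared and its log2 ratio, taken after adding 10 CPM to each, was past 1.5-fold. In the control library 2.43% of 7204 genes were higher and 3.03% lower in the members. In the agonist library 1.89% of 7092 were higher and 2.17% lower. The same direction was found in both libraries for 74 of 6894 genes that were higher (1.07%) and 104 that were lower (1.51%). Penk and Ifitm1 were past 1.5-fold in opposite directions.

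**Figure D2:**
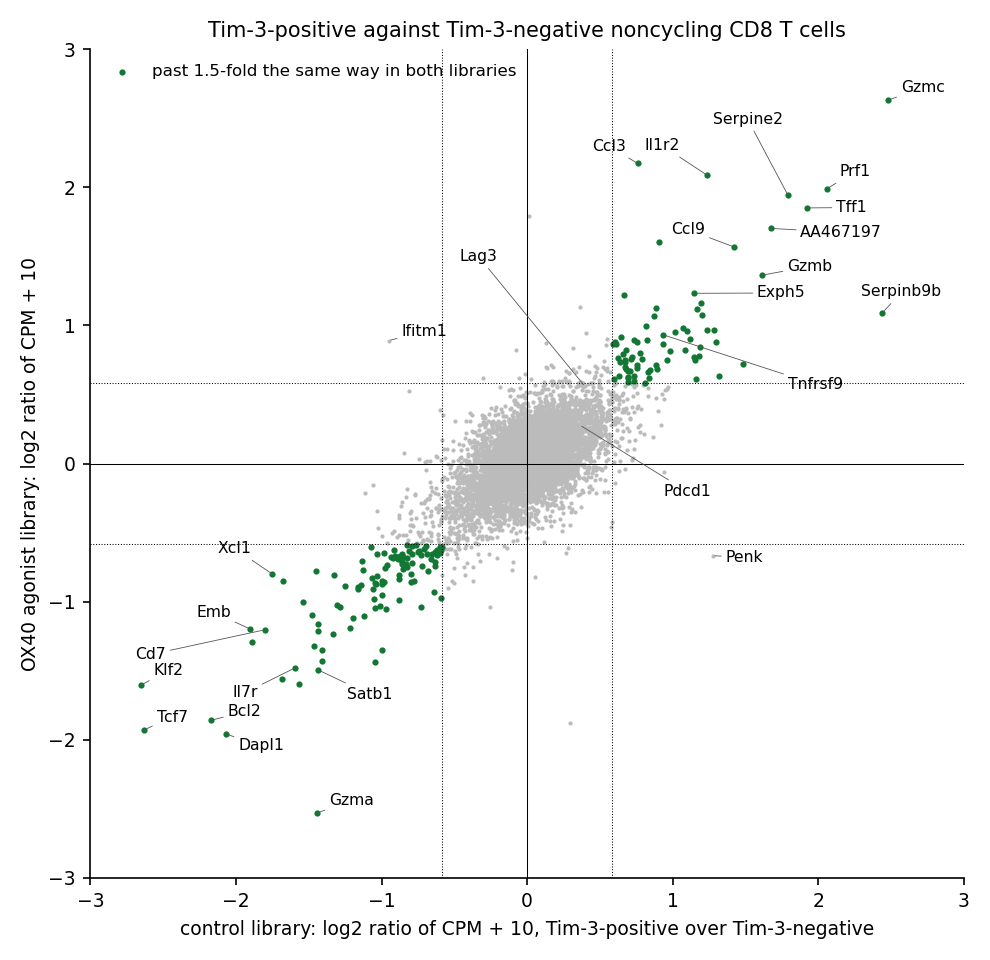
Each point is a gene, with the log2 ratio of CPM + 10 of Tim-3-positive over Tim-3-negative noncycling CD8 T cells in the control library (x axis) and the OX40 agonist library (y axis); dotted lines mark 1.5-fold. The 74 genes higher in both and the 104 lower in both are coloured, with Gzmc and Prf1 at the upper right and Tcf7, Klf2 and Bcl2 at the lower left.

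Among inhibitory receptors, the differences from Tim-3-negative cells were small. Pdcd1, which encodes PD-1, stood at 315 CPM in Tim-3-negative cells and 408 (393 to 423) in members of the control library, and at 359 and 438 (419 to 457) in the agonist library. Lag3, an inhibitory receptor that binds MHC class II, stood at 319 and 423 CPM (407 to 439) in the control library and 285 and 424 (406 to 443) in the agonist one. Both genes were higher in members of each library and neither passed 1.5-fold. Ctla4, a competitor of CD28, stood at 434 and 420 CPM in the control library and 386 and 455 in the agonist library, so its direction differed. Cd244, the receptor 2B4, was the 1 gene of the 10 tested in both libraries that passed 1.5-fold in both, at 2.26 (1.63 to 3.18) and 2.01 (1.39 to 2.97) times the Tim-3-negative level. Klrg1, an inhibitory lectin of effector cells, stood at 1.73 times (1.26 to 2.41) and 0.824 times (0.613 to 1.11). The median log2 ratio of the list was 0.31 and 0.23, against 0.011 and 0.034 over all genes.

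Inhibitory receptors, counted along with the ectoenzyme gene Entpd1, were seen together more often in the members at equal depth. After reduction to 2000 UMIs, at least 3 of Pdcd1, Lag3, Tigit, Ctla4 and Entpd1 were seen in an expected 21.9% of 554 control members (18.5 to 25.5) and 22.6% of 456 treated members (18.8 to 26.7). The shares in Tim-3-negative cells were 13.96% (10.7 to 18.03) and 14.6% (11.3 to 18.7). In cycling CD8 T cells, which had no Havcr2 gate, they were 11.2% and 11.5%. None of the 5 was seen in 10.5% and 9.39% of members and in 24.8% and 26.4% of Tim-3-negative cells. Pdcd1 and Lag3 were seen in the same cell in 29.3% (25.5 to 33.2) and 29.6% (25.4 to 34.03) of members, against 17.6% and 19.99% of Tim-3-negative cells. Melanoma cells without a Cd3 UMI, which were deeper before reduction, served as a rough background for free RNA. Among them Pdcd1 alone was seen in 0.359% and 0.0787% and Lag3 in 0.262% and 0.227%.

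Of the 12 costimulatory receptors tested, Tnfrsf9 and Tnfrsf4 were higher in members of both libraries and Crtam was lower. Tnfrsf9, which encodes 4-1BB, stood at 436 CPM in Tim-3-negative cells and 841 (819 to 863) in members of the control library, and at 458 and 884 (857 to 911) in the agonist library. Tnfrsf4, the receptor that the antibody addresses, stood at 320 and 499 CPM (482 to 516) in the control library and at 326 and 560 (539 to 581) in the agonist library. Tnfrsf4 levels also followed the number of Havcr2 UMIs per cell, from 433 CPM in control members with 1 UMI to 548 in those with 5 or more, and from 465 to 731 in treated members. Tnfrsf18, which encodes GITR, stood at 321 and 452 CPM and at 354 and 475, below 1.5-fold. Crtam, an adhesion molecule of activated cytotoxic cells, stood at 0.480 times (0.390 to 0.592) and 0.541 times (0.411 to 0.711) its Tim-3-negative level. Slamf1, a homophilic signalling receptor, stood at 1.46 and 0.921 times. The median log2 ratio of this list was 0.17 and 0.01.

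Granzyme and perforin RNA was several times higher in the members. Gzmc stood at 167 CPM in Tim-3-negative cells and 977 (954 to 1001) in members of the control library, 5.86 times as high (5.31 to 6.47), and at 108 and 724 CPM (700 to 748) in the agonist library, 6.67 times (5.90 to 7.58). Prf1 stood at 232 and 1000 CPM (976 to 1024), 4.31 times (3.97 to 4.70), and at 207 and 851 CPM (825 to 878), 4.12 times (3.76 to 4.52). Gzmb stood at 668 and 2066 CPM (2032 to 2100), 3.09 times (2.94 to 3.25), and at 776 and 2014 CPM (1974 to 2055), 2.59 times (2.47 to 2.73). In both libraries each of these genes was higher in the members. Gzma, another granzyme, went the other way, from 130 CPM in Tim-3-negative cells to 41.4 in members of the control library and from 331 to 48.9 in the agonist one. Nkg7, a cytotoxic granule protein, stood at 1.19 and 1.22 times the Tim-3-negative level, and Srgn, the granule proteoglycan serglycin, at 1.03 and 1.16 times. Of the 14 cytotoxic genes tested in both libraries, Gzmb, Gzmc and Prf1 were past 1.5-fold higher and Gzma lower, with a median log2 ratio of 0.17 and 0.13. Granzyme genes have close copies, so some granzyme reads could be assigned to a neighbour, and Gzmc lies in the same cluster on chromosome 14 as the granzyme D to G genes that the gate used.

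The granule genes were carried by different numbers of cells. After reduction to 2000 UMIs, Gzmb was seen in 78.4% of control and 73.8% of treated members, Prf1 in 60.8% and 50.8%, and Gzmc in 24.6% and 18.6%. The tenth of members with the most Gzmc UMIs held 85.1% of its control UMIs and 89.8% of its treated UMIs, against 44.3% and 47.5% for Gzmb. Thus Gzmc was concentrated in few members and Gzmb was spread over most. Gzmb and Prf1 were seen in the same cell in an expected 51.7% of control members (47.6 to 56.0) and 42.1% of treated members (37.5 to 46.8), against 15.2% and 12.4% of Tim-3-negative cells and 43.2% and 36.3% of cycling cells. Unlike the receptor shares, these intervals of the libraries did not overlap. They cover counting error only, and 1 library per group gives no spread between libraries to set this gap against. Among members with 6000 UMIs or more the shares were 54.7% and 50.1%. Gzmb, Prf1 and Ifng together were seen in 25.2% and 22.3% of members. Gzmb was seen in 1.02% and 0.400% of melanoma cells and Prf1 in 0.591% and 0.228%.

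Levels of Gzmb and Prf1 were higher in each class of cells with more Havcr2 UMIs, as were those of Gzmc apart from the class of 3 to 4 UMIs in the control library. From 0 over 1, 2, 3 to 4, and 5 or more Havcr2 UMIs, Gzmb stood at 668, 1323, 1728, 2127 and 2954 CPM in the control library and at 776, 1383, 1888, 2206 and 2896 CPM in the agonist library. Prf1 stood at 232, 478, 815, 1037 and 1587 CPM and at 207, 469, 594, 1040 and 1473 CPM. Gzmc stood at 167, 353, 859, 826 and 1809 CPM and at 108, 396, 642, 782 and 1249 CPM. Gzma did not follow this order, at 130, 28.5, 17.5, 20.03 and 97.1 CPM and at 331, 97.7, 68.7, 7.36 and 4.05 CPM, and neither did Gzmk. Pdcd1 did not follow it either, at 315, 414, 439, 376 and 411 CPM and at 359, 434, 431, 410 and 484 CPM, and neither did Lag3. These classes hold 381, 171, 134, 141 and 109 control cells and 384, 184, 109, 96 and 69 treated cells. Their median depth went from 5877 to 14989 UMIs in the control library and from 5334.5 to 13296 in the agonist library, and the part of depth in these orders was not tested.

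**Figure D3:**
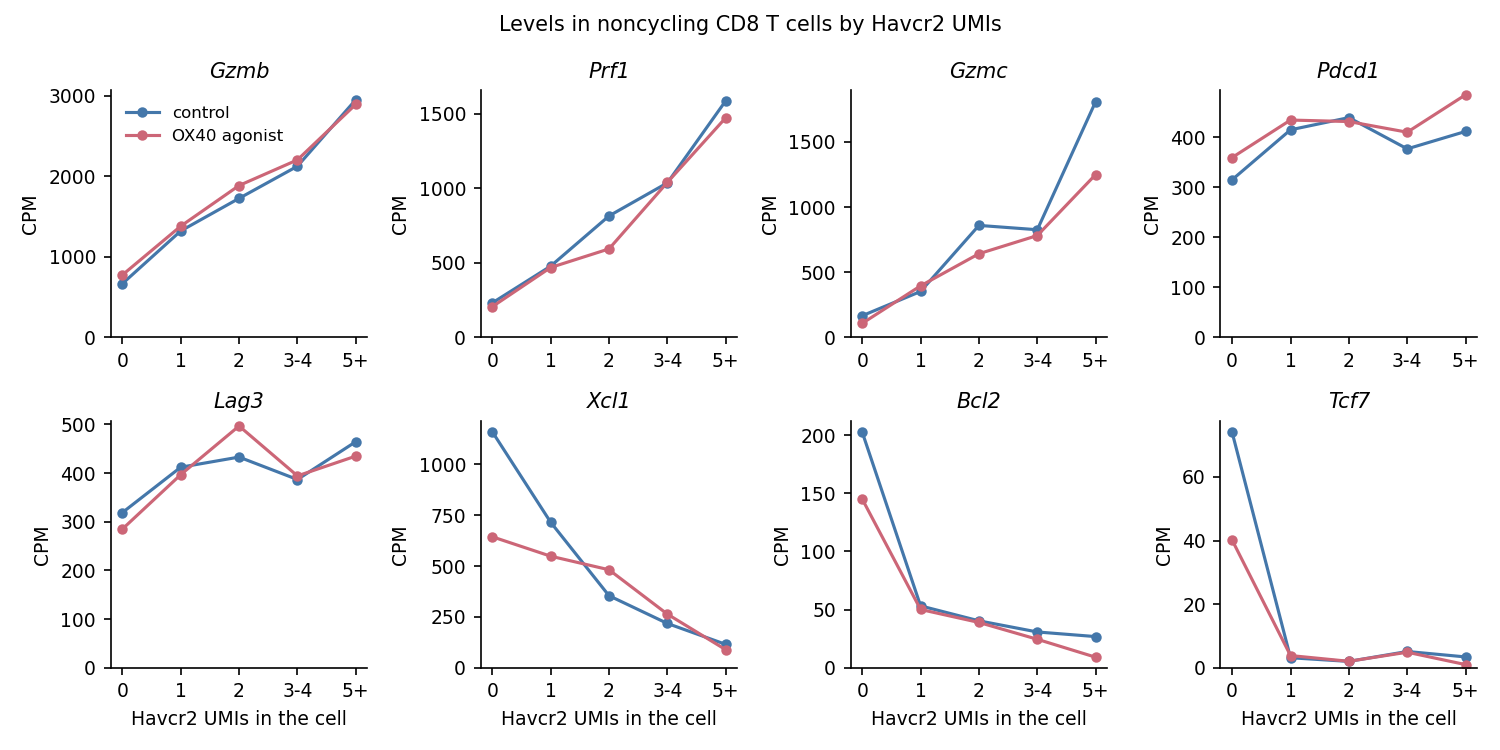
Levels (CPM, y axes from 0) of 8 genes in noncycling CD8 T cells grouped by Havcr2 UMIs per cell (x axis) in the control and OX40 agonist libraries; each point is the sum over the cells of that class. Gzmb went from 668 to 2954 CPM and from 776 to 2896 CPM, while Tcf7 was at 74.0 and 40.1 CPM in cells with no Havcr2 UMI and at most 5.13 CPM in the other classes.

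The other 9 genes of the 12 with the highest ratios in both libraries were of varied kinds. Tff1, a secreted trefoil protein, stood at 56.1 CPM in Tim-3-negative cells and 241 in members of the control library, and at 55.2 and 225 CPM in the agonist library. Serpine2, a protease inhibitor, stood at 17.4 and 84.9 CPM and at 13.5 and 80.6 CPM. AA467197 stood at 111 and 376 CPM and at 89.8 and 315 CPM. Each of these 3 was higher in the members of both libraries by a like ratio. Il1r2, the decoy receptor of interleukin-1, stood at 98.4 and 245 CPM and at 58.8 and 283 CPM. Cdkn1a, which encodes the cell cycle inhibitor p21, stood at 48.4 and 121 CPM and at 46.5 and 112 CPM. Ccl9, a chemokine, stood at 29.4 and 95.5 CPM and at 21.5 and 83.3 CPM. Ratios of Exph5, a Rab27 effector, were 2.67 and 3.07, and those of Glipr1 were 2.42 and 2.20. Serpinb9b, a paralog of the granzyme B inhibitor Serpinb9, stood at 16.3 and 132 CPM in the control library and at 32.2 and 79.7 CPM in the agonist one. The tenth of members with the most Serpinb9b held 98.2% of its UMIs in the control library and 100% in the agonist library, so its level rests on few cells.

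Genes of naive, memory and stem-like T cells were lower in the members. Of the 16 genes of this list 13 passed the minimum of 10 CPM in both libraries, and all 13 were past 1.5-fold lower in both. The minimum was met by 7 of them in the members themselves, and the others passed through the Tim-3-negative cells alone and so had to be lower. Klf2, a factor that keeps T cells quiescent and circulating, stood at 370 CPM in Tim-3-negative cells and 50.4 (45.2 to 56.1) in members of the control library, and at 163 and 46.8 CPM (40.9 to 53.4) in the agonist library. Il7r, the interleukin-7 receptor chain of resting T cells, stood at 177 and 51.9 CPM and at 145 and 45.6 CPM. Satb1, a chromatin organiser, stood at 139 and 45.1 CPM and at 142 and 43.9 CPM. Ccr7, a lymph node homing receptor, stood at 0.567 times (0.522 to 0.617) and 0.628 times (0.578 to 0.682) its Tim-3-negative level, and Slamf6, a surface marker of stem-like cells, at 0.321 times (0.229 to 0.448) and 0.349 times (0.249 to 0.484). In each library every one of these genes was lower in the members.

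Tcf7, chosen for description after its values were seen, was all but absent from the members. It stood at 74.0 CPM in Tim-3-negative cells and 3.55 (2.27 to 5.28) in members of the control library, and at 40.1 and 3.16 CPM (1.77 to 5.22) in the agonist library. Its UMIs in members numbered 24 and 15. After reduction to 2000 UMIs it was seen in 0.556% and 0.755% of members, no more than in melanoma cells at 0.847% and 0.795%. Melanoma cells were deeper before reduction, with medians of 72857 and 65896 UMIs, and whether the members' share is background was not tested. In Tim-3-negative cells Tcf7 was seen in 12.6% and 8.08%. Unthinned, 16 of 555 control and 12 of 458 treated members had a Tcf7 UMI. Tim-3-negative cells with a Tcf7 UMI, 88 and 66 cells, stood at 67.7 and 62.1 CPM of Prf1 and 432 and 387 CPM of Il7r.

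The other genes with the lowest ratios in members were also of varied kinds. Bcl2, which protects from apoptosis, stood at 203 CPM in Tim-3-negative cells and 37.1 (32.7 to 42.0) in members of the control library, and at 145 and 32.7 CPM (27.7 to 38.3) in the agonist library. It was the 1 gene of 16 survival and apoptosis genes past 1.5-fold in both libraries, and it went down over the Havcr2 classes, to 26.8 and 9.12 CPM at 5 or more UMIs. Cxcr3, a receptor for interferon-induced chemokines, stood at 71.2 and 20.6 CPM and at 71.9 and 20.5 CPM. Emb, the adhesion protein embigin, stood at 475 and 120 CPM and at 354 and 149 CPM. Cd7, a T and natural killer cell surface protein, stood at 84.8 and 17.2 CPM and at 74.3 and 26.6 CPM. Ssh2, an actin regulator, stood at 0.309 and 0.342 times its Tim-3-negative level, Gpr18 at 0.295 and 0.371 times, Rgs10, a regulator of G protein signalling, at 0.374 and 0.396 times and Evl, an actin polymerising protein, at 0.398 and 0.403 times. Of the 15 chemokine receptor and homing genes tested in both libraries, those past 1.5-fold lower in both included Cxcr3, Ccr7, S1pr1, Itgb1 and Cd69, and none was higher. Cd69, a retention and activation marker, stood at 0.295 times (0.268 to 0.325) and 0.539 times (0.487 to 0.596). Cxcr6, a receptor of tumour-resident T cells, stood at 1.498 and 1.43 times, just under the 1.5-fold line after the added 10 CPM, and Itga4, an integrin chain, at 1.05 and 0.929 times.

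Chemokines and cytokines did not share a direction. Of 15 tested in both libraries, Ccl3, Ccl9, Csf1 and Spp1 were past 1.5-fold higher in members and Xcl1 was lower. The macrophage markers were also higher in members than in Tim-3-negative cells, at 1055 against 659 CPM and at 1075 against 875. Most of the members' sums came from Cst3, which is expressed widely. The part of macrophage RNA in the levels of Ccl3, Ccl9, Csf1 and Spp1 was not tested. Xcl1, which attracts cross-presenting dendritic cells, stood at 1161 CPM in Tim-3-negative cells and 338 (324 to 352) in members of the control library, and at 644 and 366 CPM (349 to 384) in the agonist library. It went down over the Havcr2 classes, to 115 and 89.2 CPM at 5 or more UMIs. Ccl3, an inflammatory chemokine of activated T cells, stood at 688 and 1173 CPM in the control library and at 305 and 1413 in the agonist library. Ccl4, a chemokine closely related to Ccl3, stood at 1008 and 1016 CPM in the control library and at 330 and 1170 in the agonist one, where the Tim-3-negative cells were low. Ccl5, a chemokine of memory and effector T cells, stood at 6705 and 5123 CPM and at 6669 and 5306 CPM. Ifng, the cytokine interferon gamma, was described after its values were seen, and stood at 394 and 758 CPM and at 426 and 608 CPM. A single member held 17.1% of the control and 14.7% of the treated Ifng UMIs.

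Glycolytic, respiratory chain and S phase genes mostly had ratios above 1 in the members, with few past 1.5-fold. All 16 glycolysis genes had a ratio above 1 in both libraries, with a median log2 ratio of 0.57 and 0.50, against 52.0% and 55.8% of all genes with a ratio above 1. The glucose transporter Slc2a3, the lactate transporter Slc16a3 and the enzymes Aldoa and Tpi1 were past 1.5-fold in both, but among cells of like depth 1 of the 16 passed. Gapdh stood at 1.47 and 1.38 times its Tim-3-negative level, Ldha, which makes lactate, at 1.503 and 1.43 times and Pfkl, which commits sugar to glycolysis, at 1.31 and 1.26 times. Of 18 respiratory chain genes none passed 1.5-fold in both libraries, 16 and 17 had a ratio above 1, and the median log2 ratio was 0.16 and 0.14. Of 16 S phase genes none passed in both libraries and 16 and 13 had a ratio above 1, with a median of 0.31 and 0.17 after a gate on other cycle genes. Of 22 transcription factors, Irf8, at 1.72 and 1.68 times, and Zbtb32, at 2.33 and 1.98 times, were past 1.5-fold higher in both libraries. Id2, which favours effector over memory cells, stood at 1.49 and 1.59 times, and Bhlhe40, a factor of activated and resident T cells, at 1.07 and 1.10 times. Of 19 late exhaustion genes, the ectoenzyme gene Entpd1, the galectin gene Lgals1 and the adhesion receptor gene Adgrg1 were higher and Cd7 was lower. Entpd1 stood at 1.80 times (1.42 to 2.30) and 1.78 times (1.38 to 2.31). Rgs1, which limits chemokine signalling, stood at 0.909 and 1.07 times.

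Lists of signalling and interferon response genes held few genes past 1.5-fold. Among 20 T cell receptor signalling genes the phosphatase gene Dusp2 was lower, at 0.662 and 0.655 times. Among 21 cytokine receptor genes the feedback inhibitors Socs1, at 0.522 and 0.559 times, and Socs3, at 0.422 and 0.459 times, were lower. Among 22 immediate early and heat shock genes 6 had a ratio above 1 in each library, and Fos and Jun were lower, at 0.493 and 0.601 times and at 0.465 and 0.618 times. Among 12 type I interferon genes Rtp4 was lower, and none of 13 interferon gamma, 18 NF-kB, 18 MHC class I and 7 Tim-3 ligand and partner genes passed in both libraries. The interferon gamma list had a median log2 ratio of -0.21 in each library and the type I interferon list of -0.34 and -0.24.

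**Figure D4:**
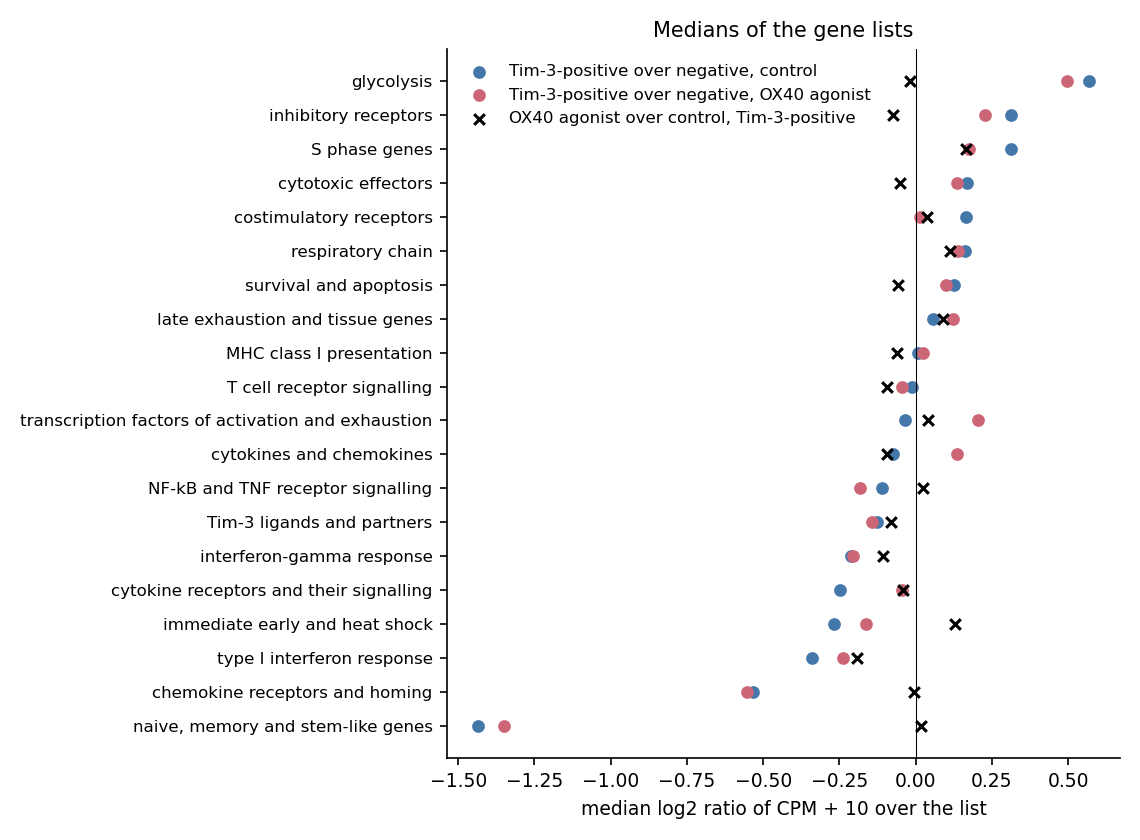
Median log2 ratio of CPM + 10 over each gene list (x axis) for Tim-3-positive over Tim-3-negative noncycling CD8 T cells in each library, and for the OX40 agonist over the control library within Tim-3-positive cells. Glycolysis lies at 0.57 and 0.50 and the naive, memory and stem-like list at -1.44 and -1.35 between positive and negative cells, while the crosses between libraries lie between -0.19 and 0.17.

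At like depth Gzmb, Gzmc, Prf1, Bcl2 and Klf2 stayed past 1.5-fold, and several other named genes did not. In cells of 6000 to 12000 UMIs, 241 control and 202 treated members had a median of 9046 and 9019.5 UMIs, and 149 and 124 Tim-3-negative cells 7702 and 7980.5. There, 39 genes were past 1.5-fold higher and 61 lower in both libraries. Of the 12 genes named as higher, 8 passed in both libraries, and Ccl9, Exph5, Serpinb9b and Glipr1 did not. Of the 12 named as lower, 9 passed, and Cxcr3, Emb and Evl did not. The log2 ratio was 2.30 and 2.37 for Gzmc, 1.28 and 1.54 for Prf1, 1.26 and 0.98 for Gzmb, -1.39 and -1.67 for Bcl2 and -2.29 and -1.21 for Klf2. Of the 16 glycolysis genes 1 passed as higher. When the 30 control and 40 agonist Tim-3-negative cells drawn to the depth of the members were used instead, 8 of the 12 higher and 8 of the 12 lower genes passed in both libraries. Serpine2, Ccl9, Il1r2 and Cdkn1a were lost from the higher genes, and Il7r, Cxcr3, Ssh2 and Emb from the lower ones. No glycolysis gene passed in that draw, which rests on few Tim-3-negative cells.

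The members stood between Tim-3-negative cells and the CD8 T cells with granzymes D to G in several effector genes, and cycling CD8 T cells were nearer to them. Gzmb stood at 2066 and 2014 CPM in members, at 1850 and 1619 in cycling cells and at 4299 and 5174 in granzyme D to G cells. Prf1 stood at 1000 and 851 CPM in members, at 565 and 460 in cycling cells and at 1705 and 1835 in granzyme D to G cells. Gzmc stood at 977 and 724 CPM in members, at 615 and 498 in cycling cells and at 5436 and 7894 in granzyme D to G cells, which were gated on its neighbours. Lag3 and Ccl5 had another order. Lag3 stood at 423 and 424 CPM in members, 231 and 229 in cycling cells and 301 and 323 in granzyme D to G cells. Ccl5 stood at 5123 and 5306 CPM in members, 1859 and 1784 in cycling cells and 3160 and 3574 in granzyme D to G cells. For Lag3 and Ccl5 the members were above both of these groups in each library. Cycling and granzyme D to G cells were deeper, with medians of 20557 and 17603 UMIs and of 19857 and 19358 UMIs. Unlike the members, neither group was gated on Havcr2. A Havcr2 UMI was found in 79.1% and 78.4% of cycling cells and in 95.02% and 93.5% of granzyme D to G cells. The part of this unlike gate in the differences was not tested.

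Between the libraries few genes of the members were past 1.5-fold, and the count moved with the settings. Of 7040 genes tested, 10 were past 1.5-fold higher in treated members (0.142%) and 18 lower (0.256%), and the median log2 ratio of all genes was -0.013. Among members without C1q or Lyz2 UMIs 62 of 7117 genes were higher and 35 lower. After 1 random draw of 2000 UMIs per cell 187 of 7126 were higher and 232 lower. That draw kept 2000 UMIs in each of 554 control and 456 treated members, so its genes near 10 CPM rest on few UMIs. Receptor genes lay close together. The ratio of the treated over the control library in members was 1.07 for Pdcd1 (1.01 to 1.14), 1.00 for Lag3 (0.948 to 1.06), 1.08 for Ctla4 (1.02 to 1.14), 1.12 for Tnfrsf4 (1.07 to 1.18) and 1.05 for Tnfrsf9 (1.01 to 1.09). Over all members, treated over control was 0.740 times for Gzmc (0.710 to 0.772), 0.851 times for Prf1 (0.818 to 0.885) and 0.975 times for Gzmb (0.9497 to 1.001). None of these receptor and granule genes passed 1.5-fold over all members. Members without a C1q or Lyz2 UMI had the other order, with Gzmc at 787 CPM in control and 943 in treated cells. There Prf1 stood at 828 and 840 CPM and Gzmb at 1828 and 1929. In members with 1 to 4 such UMIs, Gzmc stood at 1086 and 470 CPM, Prf1 at 1098 and 864 and Gzmb at 2202 and 2112. With 1 library per group there is no measure of how much 2 control libraries would differ.

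The genes that met the naming rule between libraries were all lower in treated members, and the RNA of Areg, Penk and Serpinb9b sat in few cells. Areg, which encodes the growth factor amphiregulin, stood at 134 CPM (126 to 143) in control members and 36.3 (31.1 to 42.1) in treated members. Areg was found in 83 of 555 and 41 of 458 cells, and the tenth of members with the most held 96.7% of its control UMIs and 100% of its treated UMIs. Penk, which encodes the opioid precursor proenkephalin, stood at 266 CPM (254 to 279) and 89.9 (81.5 to 98.8), found in 143 and 50 cells. Both were thus lower in level and in number of cells in the agonist library. Myo10, an unconventional myosin, stood at 57.5 and 30.2 CPM, Serpinb9b at 132 and 79.7 CPM and Lamc1, a laminin chain, at 55.7 and 33.8 CPM. Lamc1 was spread more widely, over 224 and 127 cells, and the tenth of members with the most held 44.0% and 49.4% of its UMIs.

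**Figure D5:**
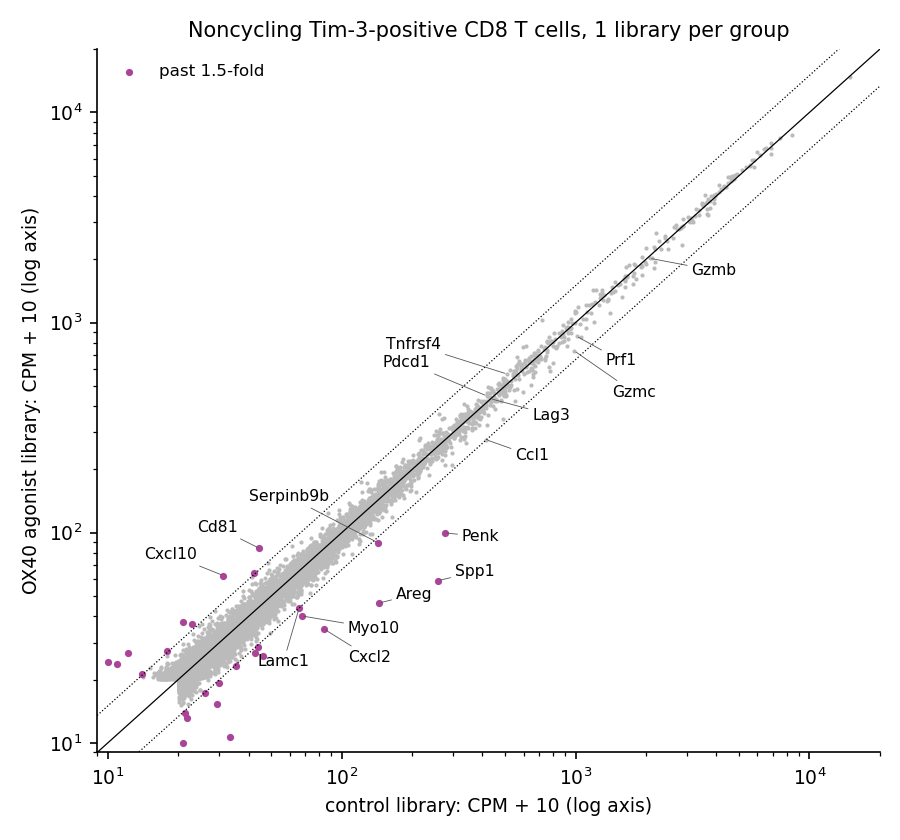
Each point is a gene in Tim-3-positive noncycling CD8 T cells, with CPM + 10 in the control library (x axis, log scale) and the OX40 agonist library (y axis, log scale); the dotted lines mark 1.5-fold and coloured points lie past it. Penk, Spp1 and Areg lie below the lower line, while Pdcd1, Lag3, Tnfrsf4 and Gzmb lie near the diagonal.

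The same genes gave mixed values in the neighbouring CD8 T cells. In Tim-3-negative cells Areg had 86.7 CPM (control) and 53.6 CPM (agonist), Penk at 104 and 149, Serpinb9b at 16.3 and 32.2, and Myo10 at 17.0 and 15.9. In cycling cells Penk stood at 86.2 and 28.3 CPM and Areg at 48.0 and 39.99. Penk was thus lower in treated than in control members and cycling cells and higher in treated Tim-3-negative cells. Members without any C1q or Lyz2 UMI, 235 control and 258 treated cells, had 163 and 82.6 CPM of Penk, 142 and 48.4 CPM of Areg and 73.7 and 90.9 CPM of Serpinb9b. Members with 1 to 4 such UMIs had 326 and 98.2 CPM of Penk and 166 and 66.9 CPM of Serpinb9b. The direction of Areg and Penk was therefore the same without those UMIs, and that of Serpinb9b was not.

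Some of the other genes past 1.5-fold were richer over all cells of the libraries or had most of their UMIs in 1 cell. Not all of the others are described here. Spp1, which encodes the matrix protein osteopontin, stood at 248 CPM in control and 49.2 in treated members, and at 539 and 510 CPM over all cells of the libraries. After reduction to 2000 UMIs it was seen in 11.04% and 6.27% of members and in 6.49% and 5.14% of melanoma cells. The treated share thus lay near the melanoma share, which came from cells that were deeper before reduction. The next genes were named after their values were seen. Of the 498 control UMIs of Cxcl2, a neutrophil-attracting chemokine, 307 were in 1 member. Of the 249 treated UMIs of Cxcl10, a ligand of CXCR3, 166 were in 1 member. The neutrophil genes S100a9, at 10.9 and 27.6 CPM, and Retnlg, at 0 and 14.1 CPM, were higher in treated members, as was Cd81, a tetraspanin, at 34.5 and 74.3 CPM. The part of neutrophil RNA in these values was not tested.

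By list, the libraries were close in the members, and beyond Spp1 and Penk no listed gene passed 1.5-fold. Of the 14 cytotoxic genes 4 had a ratio above 1 in the agonist library and 10 below, against 46.2% above 1 for all genes tested, and the median log2 ratio was -0.05. Of 20 T cell receptor signalling genes 3 were above 1 and 17 below, with a median of -0.09, among them Cd6 at 0.709 times (0.629 to 0.798). Of 12 type I interferon genes 2 were above 1 and 10 below, with a median of -0.19, and of 18 MHC class I genes 3 and 15, with a median of -0.06. In the other direction, 16 of 18 respiratory chain genes were above 1, with a median of 0.11, as were 14 of 16 S phase genes, with a median of 0.17, and 15 of 22 immediate early and heat shock genes, with a median of 0.13. The inhibitory receptor list had a median of -0.08, costimulatory receptors 0.04, transcription factors 0.04, glycolysis -0.02 and the naive, memory and stem-like list 0.02. Within these lists Eno1, a glycolytic enzyme, stood at 0.704 times (0.663 to 0.748), Cd69 at 1.48 times (1.34 to 1.64), Nr4a2, an activation-induced nuclear receptor, at 1.32 times (1.23 to 1.43), and Ccr7 at 1.30 times (1.20 to 1.40). Eno1 and Hspa1b, a heat shock gene at 1.35 times (1.23 to 1.48), have near-identical copies, so their counts are less certain.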

How the data were processed

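The authors deposited matrices of whole-number UMI counts (genes by barcodes), made with Cell Ranger 3.1.0 per the file headers and on build mm10 per the submitters' processing notes. The matrices hold 7187 control barcodes with 114026695 UMIs and 8569 treated barcodes with 118059108 UMIs. The protocol in the labels gives sorted live cells as DAPI-negative, and the series text gives the opposite sign.

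Members and gene lists were chosen with earlier results of these data known. Summed UMIs were scaled to CPM, and 10 CPM was added before each log2 ratio, with a call past 1.5-fold among genes of at least 10 CPM in the higher group. Intervals are exact Poisson (levels), exact conditional (ratios) and Clopper-Pearson (shares), at 95% and for counting error only. They treat UMIs as independent, and PCR or cell-to-cell variation is not covered. Thinned shares are exact expected shares over all draws of 2000 UMIs per cell, with the interval of the nearest whole number of cells, and cells below that depth were left out. Melanoma cells had at least 50 UMIs of Pmel, Mlana and Dct and no UMI of Cd3e, Cd3d or Cd3g. Barcodes with free Cd3 RNA were thus left out of them.

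Between libraries, named genes reached 50 CPM and 30 UMIs in the higher library and were seen in 5% of its members or more, an interval of the ratio without 1, 1.5-fold, and at least 0.5 times the CPM of all cells, taking the 10 highest and 10 lowest. Only 5 genes, all lower, met this. Between Tim-3-positive and Tim-3-negative cells the same minimums held in both libraries, and the 12 highest and 12 lowest by the smaller ratio were taken. Mitochondrial, ribosomal, Gm, Rik, haemoglobin, receptor segment and gate genes were left out. From each of 20 lists the 3 genes of highest level and the 2 of largest ratio between libraries were added. Tcf7, Xcl1, Ifng, Dusp2, Jun, Fos, Socs1, Zbtb32, Adgrg1, Entpd1, Slc2a3, Slc16a3, Tpi1, Csf1, S1pr1, Itgb1, S100a9, Retnlg and Ifitm1 lie outside these rules and were chosen after their values were seen. Doublets were scored as Scrublet does with 2 simulated doublets per cell, taking 0.8% per 1000 barcodes, and were kept in the main values. Alternatives changed gates, depth, pseudocount, minimum level, scaling and weighting. The rule for calling a gene was checked on simulated counts. Some genes are not reported here. Positions came by gene ID from GENCODE M21 for all 477 listed genes, and promoters from RefSeq, which held 21 of the 24 named genes and Havcr2. Python 3.11.15, numpy 2.4.6, scipy 1.17.1, pandas 2.3.3, scikit-learn 1.9.0 and matplotlib 3.10.9 were used.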

Additional observations from a re-analysis of the deposited data

Results flagged for a closer look

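Penk and Ifitm1 were past 1.5-fold in opposite directions between Tim-3-positive and Tim-3-negative noncycling CD8 T cells of the libraries, and this difference was not tested, since each group is 1 library. Penk, the proenkephalin gene, had a log2 ratio of 1.28 in control and -0.67 in treated mice. Its UMIs lay in 143 of 555 control and 50 of 458 treated members. The tenth of members with the most Penk held 89.3% and 99.1% of these UMIs, so its ratios rest on few cells. Ifitm1, an interferon-induced membrane protein, had -0.95 in control and 0.89 in treated mice. Ifitm1 was chosen after its values were seen, and stood at 32.2 and 54.2 CPM in members.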

How the results depend on the processing

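The share of members among CD8-gated cells moved with the gates to 24.1% and 21.5% with at least 2 Havcr2 UMIs, 29.6% and 31.2% with fewer than 5 cycle UMIs, and 14.3% and 15.4% or 8.08% and 8.67% after reducing cells to 2000 or 1000 UMIs before the gate. The counts between libraries in members, 10 higher and 18 lower, depended on the settings. They were 6 higher without doublets, 29 lower with fewer than 5 cycle UMIs, 62 and 35 without C1q and Lyz2 UMIs, 187 and 232 after 1 random draw of 2000 UMIs per cell, 61 and 76 with 1 CPM added, 0 and 4 with 50 CPM added, 3 and 7 at 50 CPM or more, 19 higher by per-cell means, and 3 higher without each gene's richest cell. Of the 18 lower genes 9 were among the 35. The counts between Tim-3-positive and negative cells, 74 and 104, were 119 higher after the draw, 141 and 176 or 23 and 26 with 1 or 50 CPM added, 41 and 52 at 50 CPM or more, and 39 and 61 at 6000 to 12000 UMIs, an alternative added after the data were seen. The log2 ratio between libraries reversed for Cxcl10 (-0.0688 with fewer than 5 cycle UMIs, -0.0528 without its richest cell) and, without C1q and Lyz2 UMIs, for Cxcl2 (0.18) and Serpinb9b (0.27). Between Tim-3-positive and negative cells it reversed for control Ccl9 (-0.31) and Il1r2 (-0.29) against 30 Tim-3-negative cells drawn to the members' depth, and for treated Serpinb9b (-0.36) at 6000 to 12000 UMIs. The causes were not tested. Of the 12 higher and 12 lower genes named between those cells, 8 and 8 were past 1.5-fold in both libraries against those drawn cells, 8 and 9 at 6000 to 12000 UMIs, and 11 (not Serpinb9b) and 12 after the draw of UMIs, and all were under the remaining alternatives run. No paired analysis was possible because each group is 1 library. Depth limits the Tim-3-negative group, and genes near 10 CPM rest on few UMIs.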
